A study of Homo sapiens with 12 samples.

Results

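The genes described here are 8 genes of the mucous and secretory epithelium, MUC5AC, MUC5B, MUC1, AGR2, AGR3, SFTPB, TFF3 and SPDEF, out of 60664 genes in the table. They were taken by gene symbol and were assembled around MUC5AC, AGR2 and SFTPB because the levels of these genes were high in CCAR2 KO cells. The values of KO against wildtype (WT) cells therefore chose the set, and for its members they are given as a description without a test. The rule did not use the hypoxia values, so that comparison was tested, although it shares the WT normoxia libraries with the other and the set was drawn up with earlier results known. MDA-MB-231 is an established line from a triple-negative breast cancer with mesenchymal features. The 12 libraries comprise 4 of untreated WT cells in normoxia, 4 of WT cells kept in a hypoxia chamber for 24 hr and 4 of untreated CCAR2 KO cells in normoxia. CCAR2 encodes DBC1, a nuclear regulator of SIRT1 and p53. According to the methods the KO was made with LentiCRISPR and 1 guide, and whether the cells were a clone or a pool is not given in the sources used here. No KO cells in hypoxia were analysed here, so both comparisons share the same WT normoxia libraries.

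Mucins are large, heavily O-glycosylated proteins of epithelial surfaces. MUC5AC and MUC5B are secreted and form gels, as in airway and stomach mucus, whereas MUC1 spans the membrane and is widely known from breast cancer. AGR2 and AGR3 belong to the protein disulfide isomerase family of the endoplasmic reticulum, and AGR2 is needed for the folding of gel-forming mucins. TFF3 is a small trefoil peptide released together with mucus. SFTPB is a lung protein that spreads surfactant. SPDEF is an ETS transcription factor known to drive goblet cell differentiation and, with it, MUC5AC and AGR2.

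Stretches upstream of a RefSeq transcription start are shown for SPDEF, the factor of the set, and for AGR2 and SFTPB. The levels of AGR2 and SFTPB were also higher in KO cells. They are from RefSeq on GRCh38.p14, which had an entry for 5 of the 8 members, and lie on the minus strand, at chr6:34556334-34556579 for SPDEF, chr7:16805081-16805249 for AGR2 and chr2:85668742-85668991 for SFTPB. Bases that the gene annotation places in an exon were left off, and capitals mark motif matches. The AGR2 stretch therefore runs from 250 to 82 bases before its start, and that start lies within the gene limits given below. SFTPB had a further entry inside the gene, with its window at chr2:85668200-85668449, which was searched but is not shown.
SPDEF: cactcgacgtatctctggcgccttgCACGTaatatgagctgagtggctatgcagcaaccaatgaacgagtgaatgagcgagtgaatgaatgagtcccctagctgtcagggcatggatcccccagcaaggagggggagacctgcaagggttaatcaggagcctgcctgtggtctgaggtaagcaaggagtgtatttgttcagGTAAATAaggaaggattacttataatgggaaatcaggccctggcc
AGR2: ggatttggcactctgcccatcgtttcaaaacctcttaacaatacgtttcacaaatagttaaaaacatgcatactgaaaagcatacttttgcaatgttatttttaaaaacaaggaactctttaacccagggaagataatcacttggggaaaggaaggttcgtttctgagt
SFTPB: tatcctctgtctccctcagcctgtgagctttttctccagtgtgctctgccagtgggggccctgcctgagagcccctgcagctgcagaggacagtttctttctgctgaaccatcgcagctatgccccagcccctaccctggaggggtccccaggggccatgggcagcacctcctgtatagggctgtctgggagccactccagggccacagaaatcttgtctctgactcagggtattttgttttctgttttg
The 250 bases upstream of each start were searched on both strands for 4 motifs. Forkhead sites were searched as TGTTTAC, and in their other common form as TATTTAC. The core of hypoxia response elements was searched as ACGTG. The NKX2-1 motif was taken as CTCAAG, and the TATA box as TATAAA. SPDEF held a forkhead match 49 bases before the start, found as GTAAATA, and a hypoxia core match 225 bases before it, found as CACGT. Of 35116 promoters, 5.27% held the forkhead motif, 18.5% the hypoxia core, 10.4% the NKX2-1 motif and 10.7% the TATA box. AGR3 and MUC1 held a TATA box, and these letters were not in the windows of AGR2 and SFTPB. The matches are matches of letters only. Other forms of the motifs were not searched, so an absence is only an absence of these letters. MUC5AC, MUC5B and TFF3 had no entry.

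The deposited values summed to between 153904088 and 213743693 per library in WT normoxia, between 76384973 and 195621872 in WT hypoxia and between 68599412 and 152328450 in KO cells. They are not read totals here, since the values were treated as estimates: the methods name a coverage-based tool, and the value 4 was over-represented in every library. CCAR2 RNA was between 144 and 151 CPM (counts scaled to the normalized library size) in WT normoxia, between 143 and 154 CPM in WT hypoxia and between 54.7 and 61.3 CPM in KO cells, so the KO libraries stood apart as their labels say. Of the mesenchymal markers, VIM was at 5100 CPM in WT normoxia, whereas the epithelial cadherin CDH1 was at 0.0422 CPM in WT normoxia. NKX2-1, a lung and thyroid factor named further on, was at 117 to 135 CPM in WT normoxia. The identity of the line was not tested beyond such levels. The summed level of 24 epithelial markers was 2990 to 3380 CPM in WT normoxia, 3460 to 3970 CPM in hypoxia and 2770 to 3030 CPM in KO cells. That of 17 markers of blood, endothelial, stromal and other cells was 105 to 116 CPM in WT normoxia, 121 to 135 CPM in hypoxia and 99.3 to 112 CPM in KO cells. PTPRC, the pan-leukocyte marker, was at 0.205 CPM in WT normoxia. The methods speak of biological triplicates for the RNA, but each group has 4 libraries. Nothing in the labels says whether the 4 libraries of a group came from separate cultures. A p-value therefore measures the spread between these libraries, which may be technical. For NAPSA, DMBT1, NKX2-1, GALNT10, B3GNT3, SPINT1, CLDN3 and GNLY, named further on, 1 library stood apart from the others of its group.

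In WT cells 6 members had values, and in KO cells these 6 were higher in every library than in any WT normoxia library. Under hypoxia MUC5AC fell, and no other member passed the test. AGR3 was listed at 0 in all 12 libraries, and TFF3 only had values in KO cells. The remaining 6 members passed the filter on low counts in both comparisons, so no count below covers all 8. Their separation in KO cells is what the set was chosen around, so it is no result about them. The share of all genes whose KO and WT normoxia libraries separate in this way was not computed. By the calls, which are another measure, 6.73% of the 21410 genes tested were higher in KO cells and 2.94% lower. Under hypoxia, 5.83% of the 21776 genes tested were higher and 1.43% lower, and of the 6 members tested 0 were higher and 1 was lower. By edgeR's quasi-likelihood test, 1 of the 6 members had an unadjusted p under 0.05 in the lower direction and 1 in the higher, and DESeq2 and limma-voom also called MUC5AC alone. Calls required both an adjusted p under 0.05 and a log2 fold change of 0.5 or more in size, and the median log2 fold change of all genes tested was 0.0113 under hypoxia and 0.00902 in KO cells.

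**Figure D1:**
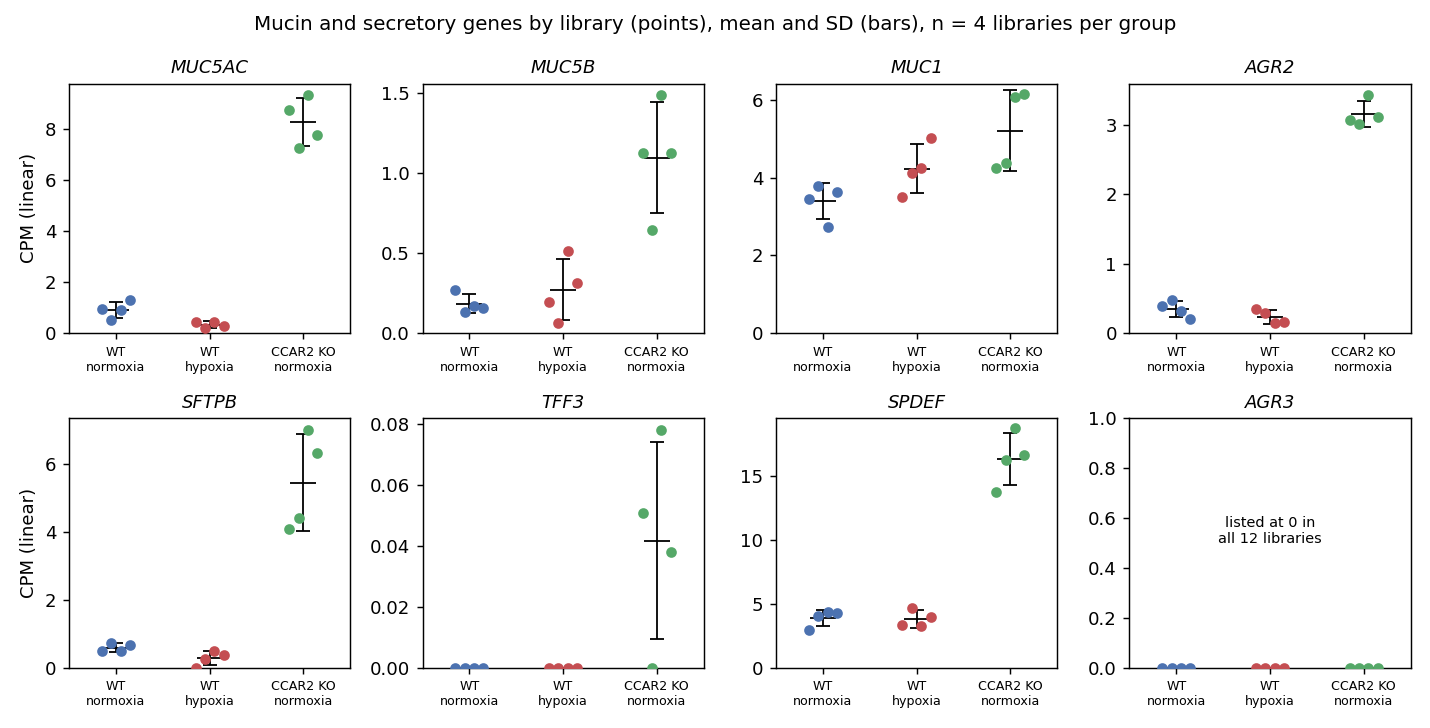
Level in CPM (linear axis, own scale per gene) of the 8 members in each of the 12 libraries, with 1 point per library and bars for the mean and SD of the 4 libraries of a group. For the 6 members with values in every group, the KO libraries sit above all WT normoxia libraries, and for MUC5AC the WT hypoxia libraries sit below them.

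MUC5AC (ENSG00000215182, chromosome 11 of GRCh38, 1157953 to 1201138, plus strand) was the only member that changed under hypoxia by the test. Its level was 0.961, 0.496, 0.886 and 1.28 CPM in WT normoxia replicates 1 to 4. In WT hypoxia it was 0.427, 0.184, 0.432 and 0.294 CPM. In KO cells it was 8.76, 7.26, 9.34 and 7.77 CPM. All hypoxia libraries lay below all normoxia libraries, and all KO libraries lay far above both. From 0.906 ± 0.323 CPM in normoxia to 0.334 ± 0.119 CPM in hypoxia (SD, n = 4 libraries each), MUC5AC fell by 1.44 on the log2 scale (standard error 0.337, adjusted p = 0.0102, quasi-likelihood test of edgeR, adjusted by Benjamini-Hochberg over all genes). An exact permutation test of log2 CPM, two-sided, gave p = 0.0286, the smallest that 4 libraries against 4 allow, and 6 members were tested in this way. In KO cells the mean was 8.28 ± 0.942 CPM, a log2 fold change of 3.19 over WT (standard error 0.227) and a ratio of the means of 9.14. In bulk RNA, fewer cells with MUC5AC and less MUC5AC RNA per cell cannot be told apart. The hypoxia values rest on 15 to 71 counts per library, against 89 to 196 in normoxia.

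MUC5B (chromosome 11, 1223066 to 1262172, plus strand), the other gel-forming mucin, starts 21928 bases downstream of the end of MUC5AC. Its level was 0.272, 0.134, 0.172 and 0.157 CPM in WT normoxia. In WT hypoxia it was 0.194, 0.0612, 0.511 and 0.314 CPM. The KO libraries were at 1.13, 0.645, 1.49 and 1.13 CPM. The hypoxia libraries spread on both sides of the normoxia libraries, and the KO libraries lay above both groups. The log2 fold change under hypoxia was 0.58 (standard error 0.515, adjusted p = 0.474, edgeR), so MUC5B did not pass the test where its neighbour did. Whether hypoxia acted differently on MUC5AC and MUC5B was not tested. The shallower hypoxia libraries, replicates 1 and 2, held 15 and 5 counts and the deeper ones 84 and 62, and without replicates 1 and 2 the log2 fold change was 1.15. In KO cells the log2 fold change was 2.58 (standard error 0.301), with a mean of 1.10 ± 0.345 CPM against 0.184 ± 0.061 CPM in WT (SD, n = 4). An antisense gene, MUC5B-AS1, shares 7416 bases with MUC5B and was listed at 0 in all libraries.

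MUC1 (chromosome 1, 155185824 to 155192916, minus strand), the membrane mucin, differed least between KO and WT cells. Its level was 3.45, 3.78, 2.72 and 3.63 CPM in WT normoxia. Hypoxia libraries were at 3.49, 4.13, 4.24 and 5.03 CPM. Among KO libraries the levels were 4.24, 4.37, 6.06 and 6.14 CPM. The hypoxia libraries overlapped the normoxia libraries, and the lowest KO library lay above the highest WT normoxia library but below the highest hypoxia library. The log2 fold change under hypoxia was 0.31 (standard error 0.14, adjusted p = 0.141, edgeR). Between KO and WT it was 0.62 (standard error 0.15), a ratio of the means of 1.53, where MUC5AC had 9.14 and MUC5B 5.97.

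AGR2 (chromosome 7, 16791811 to 16833433, minus strand), the mucin-folding isomerase, had the narrowest spread among KO libraries. Its level was 0.383, 0.480, 0.311 and 0.203 CPM in WT normoxia. In WT hypoxia it was 0.349, 0.282, 0.146 and 0.152 CPM. KO replicates 1 to 4 were at 3.07, 3.01, 3.43 and 3.11 CPM. The 2 deeper hypoxia libraries were below all normoxia libraries and the 2 shallower ones were among them. The log2 fold change under hypoxia was -0.61 (standard error 0.388, adjusted p = 0.295, edgeR), and -1.21 without the shallower libraries, where it also did not pass. Between KO and WT it was 3.19 (standard error 0.219) and the ratio of the means was 9.17. AGR3, whose gene lies 25972 bases from AGR2 on the same strand, was listed at 0 throughout.

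SFTPB (chromosome 2, 85657314 to 85668741, minus strand), the surfactant protein, differed between KO and WT cells by about as much as AGR2 and MUC5AC. Its level was 0.483, 0.736, 0.484 and 0.667 CPM in WT normoxia. In WT hypoxia it was listed at 0 in replicate 1 and was 0.245, 0.493 and 0.385 CPM in the others. The KO libraries had levels of 4.09, 4.42, 6.99 and 6.31 CPM. Hypoxia replicate 3 was within the range of normoxia and the other hypoxia libraries were below it. The log2 fold change under hypoxia was -1.03 (standard error 0.617, adjusted p = 0.271, edgeR), and -0.44 without hypoxia replicates 1 and 2. In KO cells it was 3.20 (standard error 0.213) with a ratio of the means of 9.20.

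SPDEF (chromosome 6, 34537802 to 34556333, minus strand), the goblet cell factor, was the member closest to no difference under hypoxia. Its level was 2.96, 4.01, 4.36 and 4.28 CPM in WT normoxia. Hypoxia libraries had 3.31, 4.69, 3.27 and 4.0 CPM. In KO cells it was 13.7, 16.2, 18.7 and 16.6 CPM. The WT groups covered the same range and the KO libraries lay above both. The log2 fold change was -0.04 under hypoxia (standard error 0.159, adjusted p = 0.889, edgeR) and 2.06 in KO cells (standard error 0.13), a ratio of the means of 4.18. MUC5AC fell in the same hypoxia libraries, and a relation between the levels of SPDEF and MUC5AC was not tested. TFF3 (chromosome 21, 42311667 to 42315651, minus strand) had 7, 0, 12 and 5 counts in KO replicates 1 to 4 and was listed at 0 in all 8 WT libraries, so it was not tested and no fold is given.

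**Figure D2:**
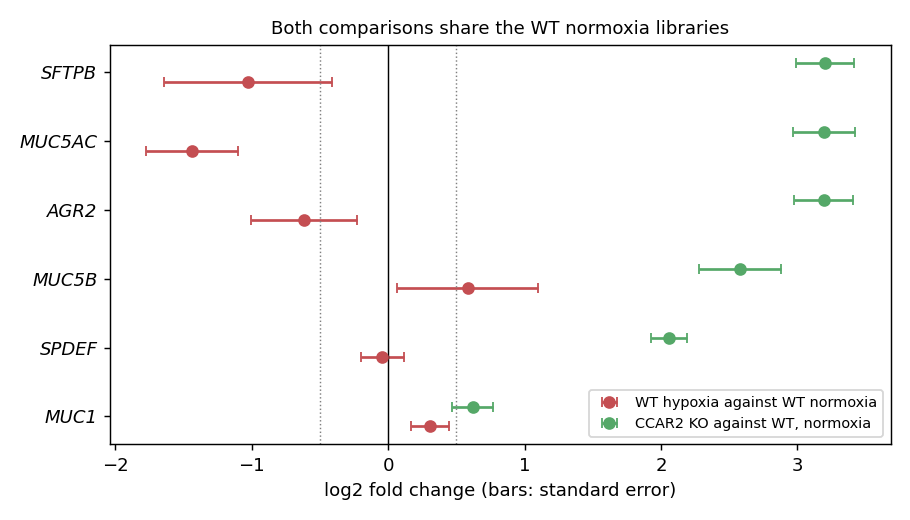
Log2 fold changes with standard errors (bars) of the 6 members tested, for WT hypoxia against WT normoxia and for CCAR2 KO against WT, with dotted lines at the 0.5 used for calls. Under hypoxia MUC5AC is at -1.44 and SPDEF near 0, whereas in KO cells the values run from 0.62 for MUC1 to 3.20 for SFTPB.

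Per kilobase of exon, SPDEF was the most abundant member in every group. In KO cells its level per length was 8.52 CPM per kb, followed by SFTPB with 1.33, AGR2 with 1.11, MUC1 with 1.10, MUC5AC with 0.475, MUC5B with 0.0591 and TFF3 with 0.0357 CPM per kb. SFTPB, AGR2 and MUC1 overlapped in their ranges and are not ordered by these data, and MUC5B and TFF3 overlapped as well. In WT normoxia the order was SPDEF with 2.04, MUC1 with 0.720, SFTPB with 0.144, AGR2 with 0.121, MUC5AC with 0.0519 and MUC5B with 0.00988 CPM per kb, where SFTPB overlapped with AGR2 and AGR2 with MUC5AC. MUC1 thus stood well above SFTPB and AGR2 in WT cells and among them in KO cells. Ranked by level per length among 20988 genes tested and annotated, AGR2 stood above 16.3% of genes in WT normoxia, 11% in WT hypoxia and 43.7% in KO cells. MUC5AC stood above 7.93%, 2.16% and 33.1% of genes in the same order, and SPDEF above 52.4%, 51.6% and 75.5%. The gel-forming mucins were thus below most genes of these cells even in the KO.

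The genes whose 12 values were most like those of the chosen members were found by the root mean square difference in log2 CPM after each gene was centred on its WT normoxia mean, among 13682 genes with at least 100 counts on average. MUC5AC, AGR2 and SFTPB were chosen by their high levels in KO cells against WT cells, and the KO libraries are among the 12 compared. A rise in KO cells therefore counts towards the likeness, and likeness within the WT libraries alone was not tested. HOPX, a homeodomain-only protein also used as a marker of alveolar cells, was the most alike for MUC5AC, AGR2 and SFTPB. Its differences were 0.629, 0.436 and 1.33 in that order, and it rose by 3.07 on the log2 scale in KO cells. HOPX was at 1.16 ± 0.153 CPM in WT normoxia, 0.683 ± 0.0965 CPM in hypoxia and 9.69 ± 0.684 CPM in KO cells (SD, n = 4). After HOPX, MUC5AC was closest to FSIP2, CEMIP, CD96 and JCAD. AGR2 was closest to the same 4 genes in another order, with CD96 at 0.533 and FSIP2 at 0.705. CEMIP, a hyaluronan-binding protein, was between 0.766 and 1.39 CPM in WT normoxia, between 0.602 and 0.979 CPM in hypoxia and between 9.68 and 12.6 CPM in KO cells. For SFTPB the next were MUC5AC, CEMIP, IFI44L and JCAD, but with genes of at least 20 counts allowed 0 of these 5 were kept, and with a prior count of 0.5 there were 3. Of MUC5AC, AGR2 and SFTPB, only SFTPB had a library listed at 0, and the part of that library was not tested. The 5 of AGR2 were kept under that setting and so were 4 of MUC5AC.

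Transcription factors of secretory lineages other than SPDEF were compared next, since several act on mucin genes. In KO cells, 4 of 21 tested rose and 1 fell, with a list median of 0.199, while under hypoxia 0 of 21 were called by edgeR, with a median of -0.197. Unadjusted p-values under 0.05 were found there for 1 higher and 8 lower, and DESeq2 called 1 lower and limma-voom 0. Without WT normoxia replicate 3 or hypoxia replicate 2, edgeR called 1 lower, as it did with the replicate block, and with all 12 libraries in one fit it called 2 lower. ELF3, an epithelial ETS factor, rose from 0.897 ± 0.172 to 2.45 ± 0.288 CPM (log2 fold change 1.45, standard error 0.165, adjusted p = 3.7e-05, edgeR). EHF, another ETS factor of the same family, rose from 3.11 ± 0.524 to 6.24 ± 0.678 CPM, a log2 fold change of 1.00. SOX9 rose from 57.6 to 94.4 CPM on average. FOXA3, a forkhead factor, fell by 1.48 on the log2 scale, from 1.63 ± 0.22 to 0.586 ± 0.227 CPM (SD, n = 4). NKX2-1, the lung and thyroid factor that activates surfactant genes, was at 126 ± 7.40 CPM in WT normoxia, 142 CPM in hypoxia and 116 ± 1.46 CPM in KO cells and was called in neither comparison. FOXA2 was at 54.6, 47.9 and 63.1 CPM in the same order and was not called either. CREB3L1, a factor of the secretory pathway, was at 80.0, 64.6 and 113 CPM and missed the fold threshold in KO cells by little, with a log2 fold change of 0.4997.

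**Figure D3:**
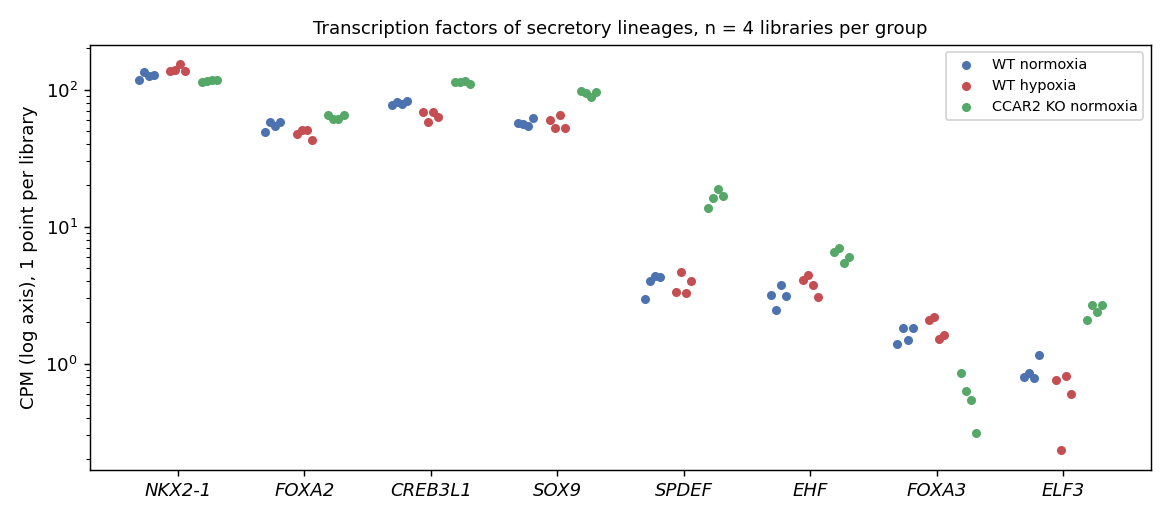
Level in CPM (log axis) of SPDEF and 7 other transcription factors of secretory lineages, with 1 point for each of the 4 libraries of a group. SPDEF, EHF, ELF3 and SOX9 are higher in the KO libraries and FOXA3 is lower, while NKX2-1 has the highest mean of the 8 in every group.

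None of the other mucins that could be tested was called in the main fits. Of 20 other mucins and mucin-like genes, 7 could be tested under hypoxia and 6 in KO cells, and 0 were called in either comparison by edgeR, DESeq2 or limma-voom, with list medians of 0.116 and 0.0179. None of those tested had an unadjusted p under 0.05 in either comparison. MUC3A was not tested in KO cells, where it had 4, 0, 0 and 4 counts against 17, 29, 20 and 8 in WT normoxia. MUC6, which lies in the same cluster on chromosome 11 as MUC5AC, was at 0.119, 0.117 and 0.132 CPM in WT normoxia, hypoxia and KO cells. MUC2 had at most 5 counts in a library and was not tested. MUC4, a membrane mucin, was at 0.110, 0.126 and 0.0431 CPM in that order. PODXL, a sialomucin, was at 293, 323 and 305 CPM. Without WT replicate 4, KO replicate 1 or KO replicate 4, 7 genes of the list were tested in KO cells and 1 was called lower.

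Several products of secretory cells were higher in KO cells. Of 25 listed, 9 could be tested, of which 5 rose and 0 fell by edgeR, with a median log2 fold change of 0.878, and DESeq2 called 4 higher and limma-voom 5. TFF1 and TFF2 passed the filter through the KO libraries in which they were high, so their direction was set by the filter, and with at least 10 counts required in every library 4 genes were tested and 3 were higher. With the main filter, 3 of 11 tested were higher without WT replicate 3 or KO replicate 3. There were 3 of 10 without WT replicate 4 and 3 of 9 without KO replicate 4. DMBT1, a mucin-like scavenger protein, rose from 2.45 ± 0.511 to 4.51 ± 0.497 CPM (adjusted p = 0.000823, edgeR, n = 4). FCGBP, a mucus protein that binds the gel, rose from 0.269 to 0.510 CPM and the lectin ZG16B from 0.504 to 0.839 CPM. TFF1, a trefoil peptide of gastric mucus, had 9, 7, 26 and 16 counts in KO replicates 1 to 4 and was listed at 0 in all WT libraries, so no fold is given, and DESeq2 did not call it. TFF2 had 13, 15, 46 and 37 counts in KO cells against 8, 13, 0 and 0 in WT normoxia (log2 fold change 2.89, adjusted p = 0.0279, edgeR). That call was lost with the replicate block, with no filter, with all 12 libraries in one fit and without any 1 of WT replicates 3 and 4 or KO replicates 3 and 4. Under hypoxia, 2 of 7 tested rose and 0 fell by edgeR, DESeq2 and limma-voom, with a median of 0.518 and no unadjusted p under 0.05 in the lower direction. FCGBP rose to 0.706 ± 0.0809 CPM (log2 fold change 1.38, adjusted p = 0.00115, edgeR) and DMBT1 to 5.41 ± 0.553 CPM (log2 fold change 1.13). Both were thus higher in hypoxia, where MUC5AC fell.

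Among 14 surfactant and alveolar genes, 9 could be tested in KO cells, of which 3 rose and 1 fell, with a median of 0.450, and without WT replicate 1 there were 5 higher. With at least 10 counts in every library, which leaves out SFTPA1, 2 of 7 were higher and 1 lower. HOPX rose by 3.07 on the log2 scale (standard error 0.115, adjusted p = 7.14e-09, edgeR). LPCAT1, an enzyme that makes surfactant lipids, rose from 87.1 to 135 CPM. SFTPA1 had 35, 32, 89 and 34 counts in KO cells against 11, 7, 0 and 0 in WT normoxia and was called higher. It passed the filter through the KO libraries in which it was high, so its direction was set by the filter. Its counts are also uncertain, since it shares near-identical sequence with SFTPA2. AGER, a marker of flat alveolar cells, fell by 1.27 on the log2 scale. SFTPC, the surfactant protein of alveolar type II cells, had 16, 0, 9 and 0 counts in KO cells and was listed at 0 in WT cells. Under hypoxia, 2 of 8 rose and 1 fell, with a median of 0.168. Higher were the lipid transporter ABCA3 from 21.9 to 37.8 CPM and the protease NAPSA from 2.49 to 4.92 CPM. HOPX fell by 0.77 on the log2 scale (standard error 0.179, adjusted p = 0.00993, edgeR).

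Mucin-type O-glycosylation enzymes build the sugar chains of mucins. In KO cells, 9 of 28 tested rose and 0 fell by edgeR, DESeq2 and limma-voom, with a median of 0.188 and 6 genes at an unadjusted p under 0.05 in the lower direction. With at least 10 counts in every library 7 of 26 were higher. GALNT10, which starts such chains, rose from 162 ± 10.3 to 343 ± 10.3 CPM (log2 fold change 1.08, standard error 0.0493, adjusted p = 2.46e-08, edgeR). GALNT5 rose from 32.7 to 66.8 CPM and GALNT3 from 14.8 to 27.3 CPM, both also enzymes of chain initiation. The sulfotransferase CHST4 rose from 0.254 to 0.790 CPM, B3GNT3, which extends chains, from 2.38 to 3.82 CPM, and the sialyltransferase ST3GAL1 from 43.2 to 68.7 CPM. Under hypoxia, 2 of 27 rose and 1 fell, with a median of 0.0052. GALNT3 fell by 0.87 on the log2 scale, to 8.09 ± 0.818 CPM (adjusted p = 0.000112, edgeR), while GALNT18 rose by 0.70 on that scale and ST6GALNAC2 from 0.301 to 0.963 CPM. Protein disulfide isomerases and oxidases, the wider family of AGR2, gave 1 higher and 1 lower of 22 in KO cells. There PDIA4 was higher with a log2 fold change of 0.50, a call lost with no filter and without WT replicate 1, WT replicate 2 or KO replicate 2, and TMX4 fell by 0.58 on the log2 scale. Under hypoxia 0 of 22 were called by edgeR, DESeq2 or limma-voom, with 5 higher and 7 lower at an unadjusted p under 0.05.

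Epithelial identity markers were also called in KO cells, with 7 of 21 tested higher and 0 lower by edgeR, DESeq2 and limma-voom, a median of 0.337 and 4 genes at an unadjusted p under 0.05 in the lower direction. The summed level of the 24 listed markers was 2770 to 3030 CPM in KO cells against 2990 to 3380 CPM in WT normoxia. The calls therefore do not stand for the total level of the list. Among the called genes, MAL2, an apical transport protein, rose by 1.41 on the log2 scale, and the protease inhibitor SPINT1 by 1.33. The junction protein TJP3 rose from 0.428 to 0.956 CPM, ESRP1, an epithelial splicing factor, from 1.58 to 2.59 CPM, and ST14, a membrane protease, from 1.25 to 2.14 CPM. Of the mesenchymal markers, 3 of 15 rose and 1 fell, with a median of 0.0633. FN1, fibronectin, rose from 413 ± 47.0 to 1210 ± 54.1 CPM, CDH11 from 146 to 317 CPM and SNAI2 from 3.80 to 6.05 CPM, and TGFBI fell by 0.53 on the log2 scale. Markers of other cell types gave 3 of 10 higher and 0 lower by edgeR in KO cells, with 3 lower at an unadjusted p under 0.05 and 1 lower by DESeq2 and by limma-voom. There were 2 higher with the replicate block, with no filter and without WT replicate 2, 3 or 4 or KO replicate 3, and 1 lower without WT replicate 3 or KO replicate 2. The higher ones were PECAM1, from 2.56 to 5.51 CPM, CD14 and COL1A1, and their part in the members' levels was not tested. Under hypoxia, 4 of 21 epithelial markers rose (CLDN3, CLDN7, TJP3 and CRB3) and ESRP1 fell by 0.57 on the log2 scale, 1 of 15 mesenchymal markers rose (LOX) and 1 fell (ZEB1). Among markers of other cells 1 of 10 was called higher, GFAP, whose groups overlapped. With 1 library left out, between 3 and 6 epithelial markers were higher under hypoxia, the 6 without WT normoxia replicate 4. The hypoxia calls of ESRP1, ZEB1 and GFAP were each lost when 1 of several libraries was left out. The lists were put together with earlier results of these data known, and no list was tested as a set.

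**Figure D4:**
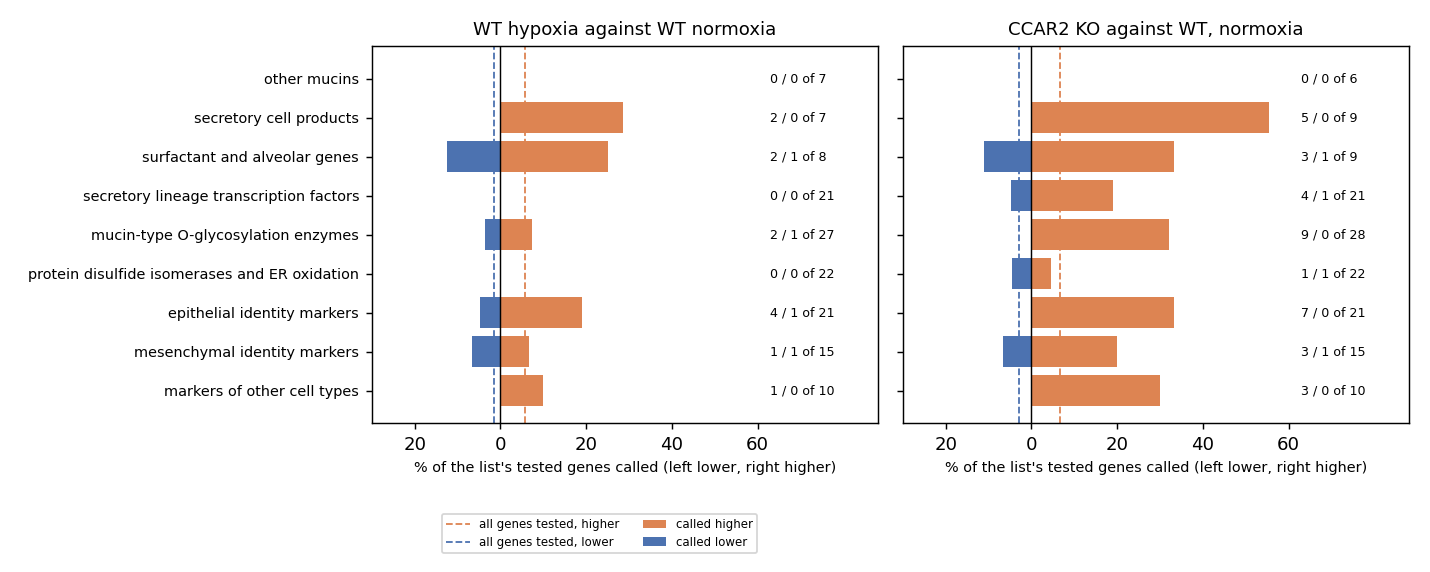
Share of the tested genes of each of 9 lists that were called higher (to the right) or lower (to the left), for WT hypoxia against normoxia and CCAR2 KO against WT, with the numbers higher / lower of tested at the right and dashed lines at the share of all genes tested. In KO cells 9 of 28 O-glycosylation enzymes and 7 of 21 epithelial markers are drawn higher, and none of 6 other mucins is. With at least 10 counts in every library, 7 of 26 O-glycosylation enzymes were higher. The bar of secretory products includes TFF1 and TFF2, and that of surfactant and alveolar genes SFTPA1, all tested through their KO counts.

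The genes next to the members were compared in the same fits. Of 36 protein-coding genes among the 3 nearest on each side, 30 could be tested in KO cells, of which 5 rose and 1 fell, and 27 under hypoxia, of which 2 rose and 2 fell, where 6.73% and 5.83% of all genes tested were higher. Of the 5 higher in KO cells, TFF1, TFF2 and GNLY were testable through the KO libraries alone, and they were not tested with at least 10 counts in every library, which leaves TSPAN13 and AHR. Around MUC5AC, MUC6, TOLLIP and AP2A2 were not called in either comparison, and BRSK2, beyond MUC5B, rose under hypoxia (log2 fold change 1.01 by edgeR) and fell by 0.78 on the log2 scale in KO cells. The call of BRSK2 in KO cells was lost without WT replicate 2, WT replicate 4 or KO replicate 1, with log2 fold changes of -0.71, -0.70 and -0.72. Around AGR2, BZW2 and ANKMY2 were not called in KO cells (log2 fold changes -0.21 and 0.22, edgeR), and AGR3 was listed at 0. TSPAN13 and AHR, on either side of AGR2, rose there. TSPAN13, 7275 bases away, was at 4.48, 4.41, 3.91 and 4.35 CPM in WT normoxia and 6.37, 6.31, 6.95 and 7.28 CPM in KO cells, and rose by 0.65 on the log2 scale (adjusted p = 0.000153, edgeR). AHR, the aryl hydrocarbon receptor, 82926 bases away, rose from between 43.9 and 53.7 CPM to between 80.1 and 96.0 CPM (log2 fold change 0.86, adjusted p = 2.38e-06, edgeR).

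Under hypoxia, TSPAN13 fell by 0.60 (adjusted p = 0.0163, edgeR) and AHR by 0.55 on the log2 scale (adjusted p = 0.00203, edgeR), whereas AGR2 itself, with far lower counts, did not pass the test. The hypoxia calls were fragile: TSPAN13 was at -0.46 and not called without hypoxia replicate 3, and AHR was not called with upper-quartile normalization or without WT normoxia replicate 1 or hypoxia replicate 2, where it stood between -0.50 and -0.48. Next to SFTPB, GNLY, granulysin, had at most 0.331 CPM in any library. It passed the filter through the KO libraries in which it was high, so its direction in KO cells was set by the filter. Its log2 fold change there was 2.18, and the call was lost with all 12 libraries in one fit. The trefoil genes TFF2 and TFF1, described with the secretory products, lie 30706 and 46631 bases from TFF3. THBS3, 2672 bases from MUC1, rose by 0.95 on the log2 scale under hypoxia.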

How the data were processed

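Values of 8 genes were taken from a table of 60664 genes in 12 RNA-seq libraries of MDA-MB-231 cells, grouped by the condition in their labels. Per the methods, the authors aligned paired-end poly-A reads with Hisat2, quantified them with StringTie and compared groups with DESeq2. The submitters' processing notes name HISAT2, SAMtools and featureCounts. The build and annotation are not given in the sources used here. The labels name another extraction reagent and library kit than the methods. The methods speak of biological triplicates for the extraction and of pairs of replicates for the test. What the authors deposited are expected counts, given as whole numbers for each gene, not scaled to library size, and they were treated here as coverage-based estimates. The value 4 was more frequent than 3 or 5 in every library, so values were also divided by 4. Positions, exon lengths and neighbours are from GENCODE release 29 on GRCh38 by Ensembl identifier (58396 identifiers matched), and upstream sequences from RefSeq.

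The members and all lists were chosen with earlier results of these data known. Each comparison was fitted on its 8 libraries with edgeR 4.0.16 in R 4.3.3 (TMM, filterByExpr, glmQLFit, glmQLFTest), with Benjamini-Hochberg adjustment over all genes tested. CPM are scaled to the TMM library size over all 12 libraries, and log2 CPM used a prior count of 2. Genes were named by rule: all members, the called genes of 9 lists (up to 5, otherwise the 3 highest and 3 lowest log2 fold changes with a mean of at least 50 counts), the 3 nearest protein-coding genes on each side of a member, and the 5 genes most alike to MUC5AC, AGR2 and SFTPB. Other list genes were named after their values were seen. SFTA3, a symbol on more than 1 gene, was left out. Some genes that the rule names are counted in their lists but not reported here. Replicate numbers showed no pairing: deviations from the group mean correlated between same-numbered libraries at -0.0071 to 0.065 (hypoxia) and -0.025 to 0.022 (KO). Fits were checked on simulated data. The alternatives were DESeq2 1.42.0, limma-voom (limma 3.58.1), RLE and upper-quartile normalization, other filters and thresholds, a joint fit of all 12 libraries, a replicate block and each library left out. Division by 4 and leaving out hypoxia replicates 1 and 2 were added after the data had been seen. Within a group, chi-square values over their degrees of freedom, for pairs of libraries, were between 12.9 and 90.5, so no pair agreed within sampling noise, as far as estimated counts can tell.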

Additional observations from a re-analysis of the deposited data

Results flagged for a closer look

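In 196 groups of 4 libraries, of the members and the other genes named, Dixon's test marked 8, where chance gives about 9.8. None was a member. NAPSA in WT normoxia replicate 1 was low (1.86 CPM, the nearest other library 2.65 CPM, Dixon ratio 0.893). DMBT1 in WT hypoxia replicate 2 was low (4.58 against 5.65 CPM, ratio 0.959), and B3GNT3 in WT hypoxia replicate 1 was low (2.39 against 3.24 CPM, ratio 0.896). NKX2-1 in WT hypoxia replicate 3 was high (154 against 139 CPM, ratio 0.855). GALNT10 in KO replicate 2 was low (327 against 347 CPM, ratio 0.920). SPINT1 in WT normoxia replicate 4 was high (5.38 against 4.18 CPM, ratio 0.847). CLDN3 in KO replicate 3 was high (1.98 against 1.01 CPM, ratio 0.930). GNLY in WT hypoxia replicate 4 was high (0.152 against 0.0122 CPM, ratio 0.920).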

How the results depend on the processing

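MUC5AC stayed called under hypoxia in 20 of 20 alternatives, with log2 fold changes between -1.64 and -1.22 and adjusted p-values between 0.000354 and 0.0374 in edgeR, DESeq2 or limma-voom. The alternatives with other thresholds reused the main fits, so the members' values could not move there in either comparison. The adjusted p alone could not lose a call. No other member was called in any alternative, but the values of low genes moved: MUC5B lay between 0.08 and 1.15, AGR2 between -1.21 and -0.41 and SFTPB between -1.55 and -0.44. SPDEF changed sign, with 0.0097 under upper-quartile normalization and -0.158 to 0.0300 with 1 library left out. The KO values of the members kept their size within the spread between replicates in 19 alternatives (MUC5AC 2.98 to 3.40, MUC1 0.52 to 0.70). With the replicate block, 1183 genes were higher and 324 lower under hypoxia and 1393 and 603 in KO cells, MUC5AC was at -1.45, and of MUC5AC, HOPX, TSPAN13, AHR, SFTPA1, GNLY, BRSK2, TFF1 and TFF2 only TFF2 lost its call. Whether the cells were handled in pairs is not given. Upper-quartile normalization left 192 genes lower under hypoxia, against 312, and the cause was not tested. By construction, the adjusted p alone gave 2518 higher and 2609 lower under hypoxia and 3199 and 3307 in KO cells, and the threshold of 1 on the log2 scale gave 440 and 47, and 604 and 171. Values divided by 4 left MUC5AC at -1.39, with MUC5B not testable under hypoxia. Depth limits AGR2, SFTPB and MUC5B in WT cells, with 0 to 132 counts per library, so a hypoxia difference in them may not have been detectable.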
